A study of Mus musculus with 4 samples.

Results

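The genes described here are the classical cadherins, their close relatives and the non-clustered protocadherins of the mouse, measured in single cells of the embryonic neocortex. They were every gene of the feature list whose symbol was Cdh or Pcdh followed by a number, with an optional x, which gave 35 genes of 32285. The 35 comprised 5 type I classical cadherins, 13 type II cadherins, 5 other cadherins, 4 delta-1 protocadherins, 5 delta-2 protocadherins and 3 other protocadherins. All 35 had at least 1 unique molecular identifier (UMI, a tag that marks 1 captured RNA molecule), and 25 reached a mean of 10 UMIs per 1000000 UMIs (CPM) in at least 1 cell class.

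Cadherins are calcium-dependent adhesion proteins of the cell surface. Type I cadherins such as E-cadherin (Cdh1) and N-cadherin (Cdh2) bind the same cadherin on a neighbouring cell and are tied to actin by catenins, while type II cadherins and protocadherins bind more selectively and mark nuclei, layers and circuits of the brain. In the developing cortex N-cadherin holds the apical junctions of radial glia, the neural stem cells of the ventricular zone, and E-cadherin is the cadherin of epithelia and of pluripotent cells.

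The study asked what a transient pulse of the 4 Yamanaka reprogramming factors does to the developing neocortex. The i4F-Nes group had the genotype Nestin-Cre;i4F;ROSA-STOP-rtTA, in which Cre made in neural progenitors of the nervous system removes a stop signal before the doxycycline-responsive activator rtTA, and rtTA drives the i4F cassette. The CTR group, littermates, had the genotype i4F;ROSA-STOP-rtTA and so carried the cassette and the silent activator without Cre. Dams of both groups drank doxycycline at 0.2 mg/ml between E10.5 and E14.5, 4 days in all, and the rostral neocortex was taken at E15.5, dissociated with papain and profiled by droplet-based 3′ single-cell RNA sequencing. There were 2 i4F-Nes and 2 CTR libraries. The labels do not say how many embryos entered a library, so the p-values below measure only the spread between these libraries, which may be partly technical.

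After filtering, the i4F-Nes libraries had 7498 and 6407 cells and the CTR libraries 6046 and 6690, with a median of 11320 to 15162 UMIs a cell. Both replicate 1 libraries were deeper than both replicate 2 libraries. Any pair of libraries shared 20 to 31 cell barcodes of the 7942 to 9646 in a library. Pou5f1, a cassette factor that the cortex does not normally use, was counted at 30.1 and 10.8 CPM in the i4F-Nes libraries, against 1.88 and 1.28 CPM in the CTR libraries. A 3′ tag cannot tell the native Pou5f1 locus from the transgene.

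Cells were assigned to classes ("gates") by markers outside the 35 genes, so that no cadherin decided where a cell went. The cortical classes were radial glia, intermediate progenitors (the dividing daughters that make neurons), newborn neurons, upper-layer neurons, and layer 5 and layer 6 neurons, the last 2 together forming the deep-layer class. Radial glia had a median of 10 of 12 radial glia markers detected and layer 6 neurons 6 of 7 layer 6 markers, whereas layer 5 neurons had 2 of 7 layer 5 markers and are the least sharply marked class. Layer 6 neurons had more of these layer 5 markers, with a median of 3 of 7. The 2 deep gates are thus set apart mainly by layer 6 markers, of which layer 5 neurons had a median of 1 of 7. Upper-layer neurons and newborn neurons had the same median of 6 upper-layer markers out of 9. The intermediate progenitor gate had a median of 6 of 9 newborn neuron markers, against 7 in newborn neurons and 0 in radial glia. Tubb3, a newborn neuron marker, was on in 85.9% of its cells. At most 25.2% of intermediate progenitors in a library had mitotic transcripts, against at least 51.3% of radial glia. This gate therefore holds many cells that are not dividing and carry neuronal markers. A further class found in the i4F-Nes libraries, called the reprogrammed progenitor gate here, was defined by 10 genes including Cytl1, Anxa1, S100a6, Hopx and Nanog, and held 392 and 348 cells in the i4F-Nes libraries, against 0 and 1 in the CTR libraries. A Krt8 neuron-like gate, defined by 10 genes including Krt8, Crabp2 and Ebf1, held 243 and 278 cells in the i4F-Nes libraries, against 1 and 0 in the CTR libraries. Levels below are CPM within a gate of a library, to be compared for 1 gene across gates and not between genes, since 3′ tags are not scaled by transcript length.

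**Figure D1:**
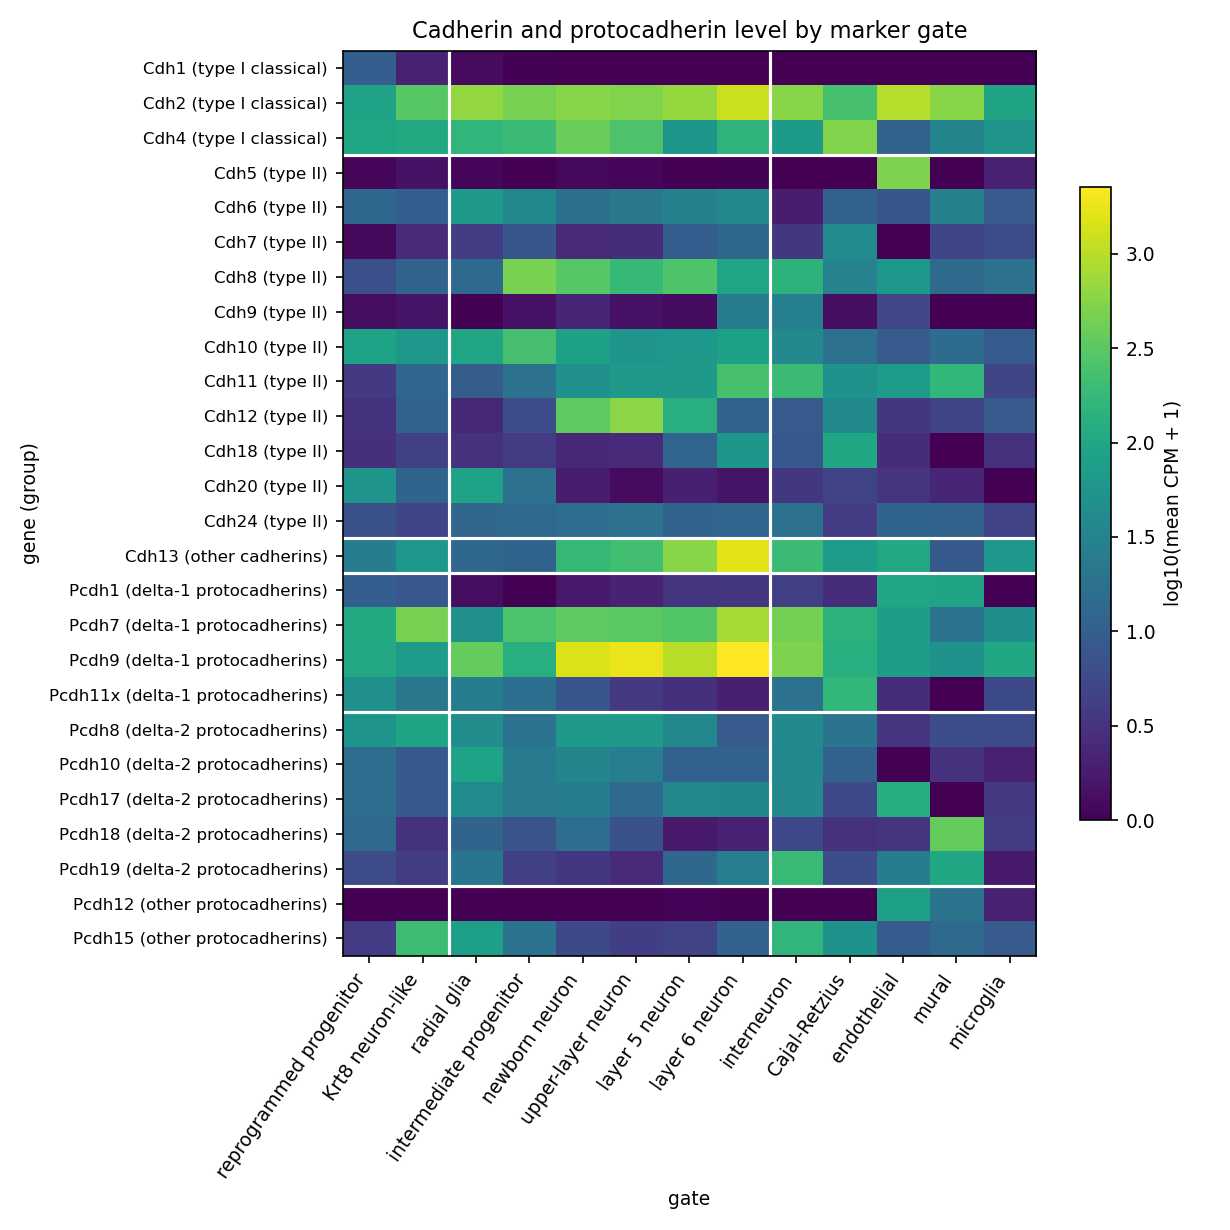
Mean level of the 25 genes that reached 10 CPM in a gate, and of Cdh1, in each marker gate, as log10(mean CPM + 1) over the libraries with at least 10 cells in the gate. Genes run down the page by family and gates run across, with the reprogrammed gates at the left and the non-cortical classes at the right. Cdh2 is high in nearly every column and lowest in the reprogrammed progenitor gate at 85.9 CPM, and Cdh5 stands out in the endothelial column at 509 CPM.

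Of the 35 genes, 22 reached 10 CPM in a cortical gate, and 17 of these 22 had the same highest cortical gate in all 4 libraries. By mean level, 9 of the 22 were highest in layer 6 neurons, 6 in radial glia, 3 in newborn neurons, 2 in intermediate progenitors, 2 in upper-layer neurons and 0 in layer 5 neurons. The 5 whose highest gate varied between libraries were Cdh7, Cdh24, Pcdh8, Pcdh17 and Pcdh18. The 10 genes whose mean over libraries stayed under 10 CPM in every gate were Cdh1, Cdh3, Cdh15, Cdh16, Cdh17, Cdh19, Cdh22, Cdh23, Cdh26 and Pcdh20, with 3 UMIs over all kept cells for Cdh16 up to 475 for Cdh22. Cdh16, Cdh17, Cdh19, Cdh26 and Cdh3 had under 50 UMIs each in 26641 cells. In i4F-Nes replicate 1, 23 of the 33 Cdh26 UMIs lay in the reprogrammed progenitor gate described below, and the 17 Cdh3 UMIs comprised 5 in that gate and 12 in the Krt8 neuron-like gate. In i4F-Nes replicate 2 these gates held 1 of 7 Cdh26 UMIs and 3 of 5 Cdh3 UMIs.

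The genes lie on 11 chromosomes, with 8 on chromosome 8 and 5 each on chromosomes 14 and 15 (GENCODE M21 positions on GRCm38). The 5 type II cadherins of chromosome 15 follow each other between base 13028701 and base 23474418 in the order Cdh6, Cdh9, Cdh10, Cdh12 and Cdh18, and each had its own pattern. Among the cortical gates Cdh6 was highest in radial glia, Cdh10 in intermediate progenitors, Cdh12 in upper-layer neurons, and Cdh9 and Cdh18 in layer 6 neurons. Of the chromosome 8 members, Cdh8 was highest in intermediate progenitors and Cdh11 and Cdh13 in layer 6 neurons.

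The step from radial glia to intermediate progenitors changed the cadherin set in both directions. Progenitor identity and neuronal differentiation cannot be told apart in this contrast, since the intermediate progenitor gate also carried newborn neuron markers. Cdh8, a type II cadherin known for its restricted expression in cortical areas and layers, was low in radial glia and high in intermediate progenitors, while Cdh20, Pcdh19 and Pcdh10 went the other way. Of 23 members with enough counts to test, 8 were higher and 12 lower in intermediate progenitors (edgeR's quasi-likelihood test with Benjamini-Hochberg adjustment over all genes, adjusted p under 0.05, library as block). This contrast called 68.1% of the 13356 genes tested, 34.1% higher and 34% lower, so most members passing is near what any set of genes did; the content lies in which members moved and how far. The median log2 fold change of the members was −0.40, against 0.00 for all genes tested.

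The promoter windows of the 2 members most raised and the 2 most lowered in intermediate progenitors that have a clean entry are shown because the factors that mark this step, the proneural bHLH proteins, bind E-boxes. Each is the 250 bases upstream of the RefSeq start on GRCm38.p6, on the gene's strand, and capitals mark every E-box of the form CANNTG, a pattern that reads the same on both strands. Cdh8 is at chr8:99416472-99416721 (minus), Pcdh20 at chr14:88471397-88471646 (minus), Pcdh19 at chrX:133688994-133689243 (minus) and Cdh20 at chr1:104768270-104768519 (plus).
Cdh8: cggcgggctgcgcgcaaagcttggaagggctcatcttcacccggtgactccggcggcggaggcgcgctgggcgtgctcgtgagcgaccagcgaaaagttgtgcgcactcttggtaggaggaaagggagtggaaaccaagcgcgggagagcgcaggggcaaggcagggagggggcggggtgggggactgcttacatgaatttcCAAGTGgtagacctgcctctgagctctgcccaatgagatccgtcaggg
Pcdh20: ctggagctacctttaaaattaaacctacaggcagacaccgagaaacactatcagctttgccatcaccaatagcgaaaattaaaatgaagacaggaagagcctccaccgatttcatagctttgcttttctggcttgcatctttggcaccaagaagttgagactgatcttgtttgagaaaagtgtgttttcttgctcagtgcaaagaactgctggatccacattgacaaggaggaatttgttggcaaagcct
Pcdh19: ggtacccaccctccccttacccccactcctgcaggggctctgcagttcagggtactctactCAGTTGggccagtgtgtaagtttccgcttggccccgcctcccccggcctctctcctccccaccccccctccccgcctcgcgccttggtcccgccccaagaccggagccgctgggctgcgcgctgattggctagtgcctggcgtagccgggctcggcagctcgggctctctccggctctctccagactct
Cdh20: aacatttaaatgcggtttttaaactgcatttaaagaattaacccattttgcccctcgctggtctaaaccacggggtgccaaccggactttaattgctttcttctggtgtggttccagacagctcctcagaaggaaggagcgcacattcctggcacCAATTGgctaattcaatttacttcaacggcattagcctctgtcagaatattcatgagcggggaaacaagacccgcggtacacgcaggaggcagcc
The Cdh8, Pcdh19 and Cdh20 windows each held 1 CANNTG and the Pcdh20 window held 0. These 4 windows are too few to show whether raised and lowered genes separate by this motif. CANNTG was in 66.2% of the 32851 RefSeq promoter windows of the same length and in 12 of the 22 members with an entry. None of the 4 windows held the narrower forms CAGATG or CATCTG, found in 14.4% of all windows, or CAGCTG, found in 13.0%. A match here is a description of the letters and not a bound site.

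Among the type II cadherins, Cdh8 had 548 and 399 CPM in i4F-Nes and 482 and 466 CPM in CTR intermediate progenitors, against 11.8 and 14.1 CPM in i4F-Nes and 14.2 and 12 CPM in CTR radial glia. The classes were separated in all 4 libraries, with a log2 fold change of 5.27 (SE 0.11, edgeR adjusted p = 8.2e-09). Cdh10 had 275, 218, 171 and 251 CPM in intermediate progenitors of i4F-Nes replicates 1 and 2 and CTR replicates 1 and 2, against 112, 69.8, 89.5 and 98.7 CPM in their radial glia, a log2 fold change of 1.37 (SE 0.10, edgeR adjusted p = 2.1e-05). Cdh11, known from mesenchyme and bone, and Cdh7 and Cdh12 were also higher, by log2 fold changes of 1.04, 1.056 and 1.97, from low levels. Cdh20 went down: it had 21.4 and 26.4 CPM in i4F-Nes and 8.72 and 12.7 CPM in CTR intermediate progenitors, against 98.4 and 89.1 CPM in i4F-Nes and 80.2 and 67.8 CPM in CTR radial glia. That is a log2 fold change of −2.32 (SE 0.24, edgeR adjusted p = 0.0007), and the classes did not overlap in any library. Cdh6 and Cdh22 were lower by smaller amounts, with log2 fold changes of −0.64 and −1.08, the Cdh22 call being lost with DESeq2 (adjusted p = 0.056) and under stricter gates (edgeR adjusted p = 0.054).

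All 5 delta-2 protocadherins were lower in intermediate progenitors. Proteins of this group carry a cytoplasmic motif that recruits the actin-branching WAVE complex, and Pcdh19 is a gene of X-linked epilepsy in humans. Pcdh19 had 3.47, 3.77, 3.99 and 1.92 CPM in intermediate progenitors of i4F-Nes replicates 1 and 2 and CTR replicates 1 and 2, against 25.2, 14.7, 25.7 and 10.1 CPM in their radial glia (log2 fold change −2.51, SE 0.15, edgeR adjusted p = 8.8e-07). Pcdh10 had 19.9, 27.4, 16.6 and 24.9 CPM in intermediate progenitors, against 82.7, 105, 67.2 and 95 CPM in radial glia (log2 fold change −1.91, SE 0.06, edgeR adjusted p = 2.3e-08). For both genes every intermediate progenitor value lay below every radial glia value. Pcdh8, Pcdh18 and Pcdh17 had log2 fold changes of −1.17, −0.75 and −0.73.

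The delta-1 protocadherins split. Pcdh7 had 369.7, 167, 246 and 244 CPM in intermediate progenitors of i4F-Nes replicates 1 and 2 and CTR replicates 1 and 2, against 55, 63.6, 27.3 and 41.1 CPM in their radial glia, a log2 fold change of 2.56 (SE 0.32, edgeR adjusted p = 0.0018). Pcdh9 had 160.0, 129, 89.8 and 146 CPM in intermediate progenitors, against 481, 295, 307 and 374 CPM in radial glia, a log2 fold change of −1.41 (SE 0.09, edgeR adjusted p = 6.1e-06). Both pairs of classes were apart in every library, in opposite directions, and Pcdh11x was lower by −0.67. Pcdh15, which with Cdh23 forms the tip links of inner-ear hair cells, had 15.0 to 20.3 CPM in intermediate progenitors, against 62.0 to 97.5 CPM in radial glia, a log2 fold change of −2.02 (SE 0.19, edgeR adjusted p = 0.00018). Pcdh20 was higher by a log2 fold change of 4.18 (SE 0.50, edgeR adjusted p = 6.5e-05), but this is a low gene, with 50, 19, 46 and 31 UMIs in intermediate progenitors of the 4 libraries, against 5, 1, 0 and 0 UMIs in radial glia.

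Cdh2 itself was lower by a smaller amount at this step, with 531, 408, 470.3 and 472 CPM in intermediate progenitors of i4F-Nes replicates 1 and 2 and CTR replicates 1 and 2, against 708, 628, 607 and 663 CPM in their radial glia. Its log2 fold change of −0.40 (SE 0.05, edgeR adjusted p = 0.0001) had the same direction in 4 of 4 libraries. R-cadherin, Cdh4, was higher by 0.36 on the log2 scale, a call lost without i4F-Nes replicate 1 (edgeR adjusted p = 0.10), without CTR replicate 1 (edgeR adjusted p = 0.14), in the CTR libraries alone (edgeR adjusted p = 0.16) and under stricter gates (edgeR adjusted p = 0.15).

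Within intermediate progenitors, cells with mitotic transcripts differed from the others, given here as means over the 4 libraries without a test. Cdh20 had 40.9 CPM in cycling and 10.53 CPM in other intermediate progenitors, and Pcdh18 had 13.8 and 4.59 CPM, both higher in cycling cells in 4 of 4 libraries. Cdh8 had 293.8 CPM in cycling and 521 CPM in other intermediate progenitors, and Pcdh7 had 133 and 287 CPM, both higher in cycling cells in 0 of 4 libraries. Cycling radial glia had Cdh8 at 10.6 CPM and Pcdh7 at 54.9 CPM, below cycling intermediate progenitors in each library. In radial glia the cycling cells had more Pcdh17, at 51.5 CPM in cycling and 26.5 CPM in other radial glia, while Cdh2 was 649 CPM in cycling and 657 CPM in other radial glia.

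From intermediate progenitors to newborn neurons another set of members switched, and Cdh12, Cdh13 and Pcdh9 came up while Cdh20 all but ended. Of 22 members tested, 12 were higher and 9 lower in newborn neurons (edgeR, adjusted p under 0.05), where the contrast called 67.2% of 12765 genes, 33.4% higher and 33.7% lower. The member median was a log2 fold change of 0.27, against 0.00 for all genes tested. Of the 5 delta-2 protocadherins that had been lower in intermediate progenitors than in radial glia, 4 were higher again in newborn neurons.

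Cdh12, a type II cadherin of the brain, had 374 and 411 CPM in i4F-Nes and 187 and 372 CPM in CTR newborn neurons, against 2.92 and 6.56 CPM in i4F-Nes and 5.83 and 5.77 CPM in CTR intermediate progenitors. The log2 fold change was 6.03 (SE 0.29, edgeR adjusted p = 2.4e-05). T-cadherin, Cdh13, is anchored to the membrane by a lipid and lacks the catenin-binding tail. It had 198, 122, 254 and 100.01 CPM in newborn neurons of i4F-Nes replicates 1 and 2 and CTR replicates 1 and 2, against 8.03, 12.1, 11.3 and 12.9 CPM in their intermediate progenitors, a log2 fold change of 4.11 (SE 0.32, edgeR adjusted p = 0.00018). Pcdh9 had 1503, 1651, 1147 and 1757 CPM in newborn neurons, against 160.0, 129, 89.8 and 146 CPM, a log2 fold change of 3.64 (SE 0.08, edgeR adjusted p = 2.7e-11). These 3 genes were apart in every library. The size of the Cdh13 step depended on how strictly the classes were cut, with a log2 fold change of 1.41 under the stricter gates.

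Cdh20 fell to 1.34 and 1.23 CPM in i4F-Nes and 0.525 and 0.435 CPM in CTR newborn neurons, a log2 fold change of −4.13 against intermediate progenitors (SE 0.20, edgeR adjusted p = 5.5e-09). Cdh7, Cdh10 and Cdh6 also fell, with log2 fold changes of −1.85, −1.41 and −1.16, as did Pcdh15, Pcdh20 and Pcdh11x, with −1.84, −2.06 and −1.05. Pcdh8, Cdh11, Pcdh18 and Cdh4 rose, with log2 fold changes of 1.90, 1.69, 1.31 and 1.11. Pcdh10 rose to 28.4 and 41.7 CPM in i4F-Nes and 24.7 and 35.7 CPM in CTR newborn neurons. Its intermediate progenitors had 19.9 and 27.4 CPM in i4F-Nes and 16.6 and 24.9 CPM in CTR. Cdh18, a low gene there, fell from 2.65, 3.61, 1.39 and 3.72 CPM to 0.823, 2.88, 0.263 and 1.45 CPM (i4F-Nes replicates 1 and 2, CTR replicates 1 and 2). Cdh2 had 558, 616, 535 and 571 CPM in newborn neurons of i4F-Nes replicates 1 and 2 and CTR replicates 1 and 2 and was higher than in intermediate progenitors by 0.38 on the log2 scale (SE 0.07, edgeR adjusted p = 0.00049). Cdh8 had 305, 329, 269 and 314 CPM in newborn neurons, a log2 fold change of −0.54, but under the stricter gates it was 0.13 (edgeR adjusted p = 0.18), so its fall depended on the cut. The rise of Pcdh7, by 0.53, was lost without CTR replicate 1 (edgeR adjusted p = 0.088) or CTR replicate 2 (edgeR adjusted p = 0.071). The small rises of Pcdh17 and Cdh24, 0.21 and 0.33, were each lost without i4F-Nes replicate 1 (edgeR adjusted p = 0.059 and 0.055), and that of Pcdh17 also without CTR replicate 1 or CTR replicate 2 (edgeR adjusted p = 0.27 and 0.091). Both were lost with DESeq2 (adjusted p = 0.25 and 0.11).

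**Figure D2:**
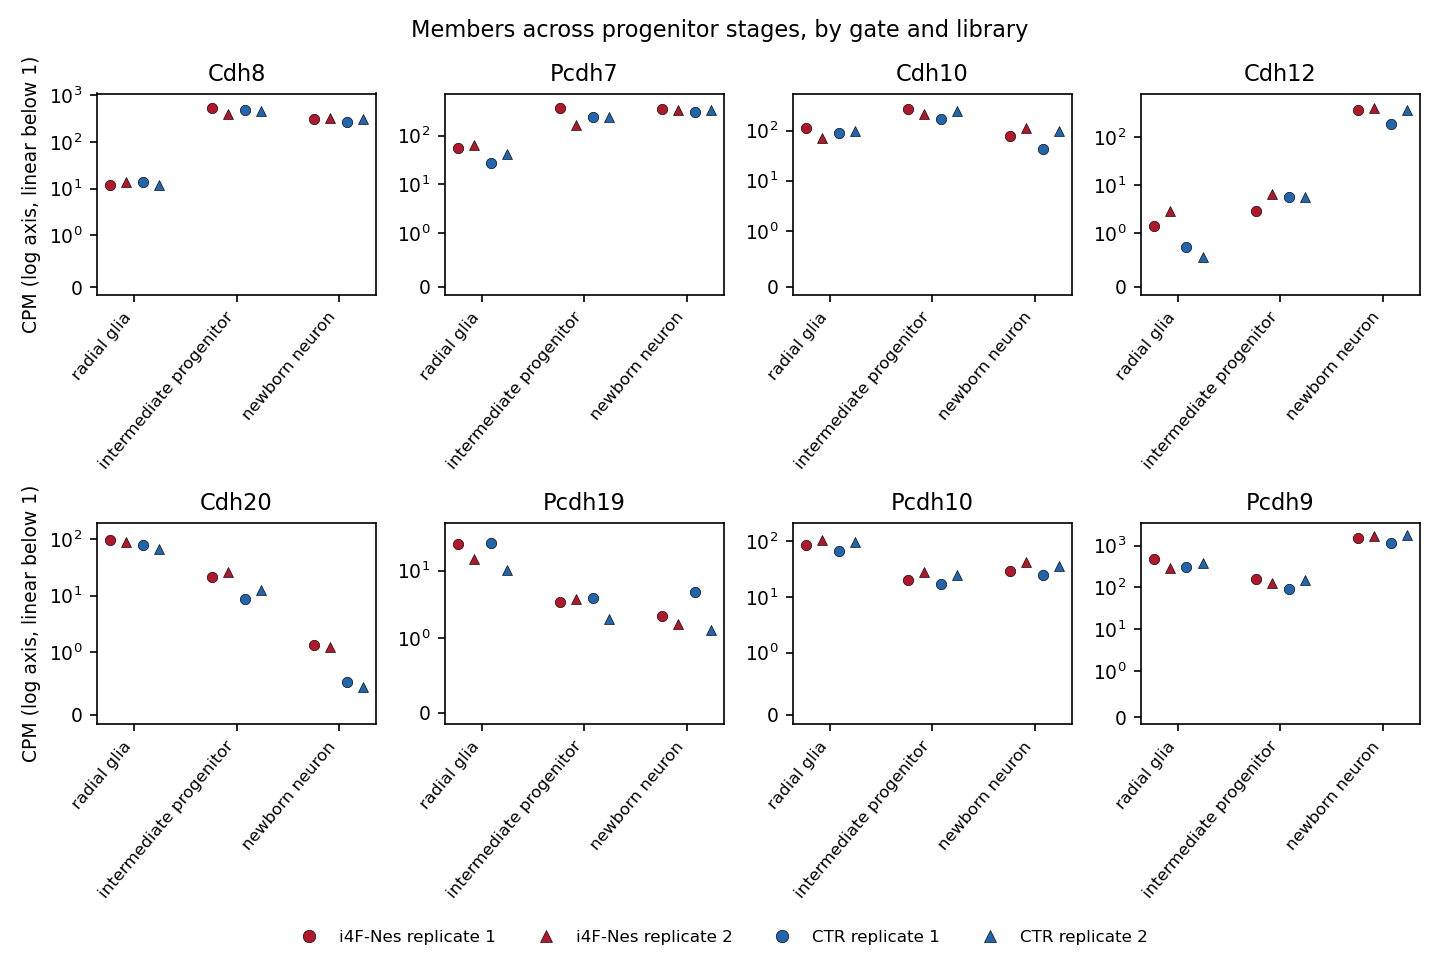
Level of 8 members in radial glia, intermediate progenitors and newborn neurons, in CPM on a log axis that is linear below 1. Each point is 1 library (red i4F-Nes, blue CTR; circles replicate 1, triangles replicate 2). Cdh8 sits at 11.8 to 14.2 CPM in radial glia and 399 to 548 CPM in intermediate progenitors, Cdh20 steps down at both stages, and Pcdh9 dips in intermediate progenitors before reaching 1147 to 1757 CPM in newborn neurons.

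The cytoplasmic partners of cadherins, listed as catenins and linked proteins, changed in both directions, in contrasts that called 68.1% and 67.2% of all genes. In intermediate progenitors against radial glia 5 of 15 tested were higher and 7 lower, among them Ctnna2, the neuronal alpha-catenin, with a log2 fold change of 2.36, and Vcl, vinculin, with −1.35 (edgeR adjusted p = 0.00081 and 1.9e-07). In newborn neurons against intermediate progenitors 9 of 15 were higher and 4 lower, with Ctnna2 at 2.02 and Ctnna1, the epithelial alpha-catenin, at −1.90 (edgeR adjusted p = 2.4e-09 and 2.5e-10). Of the transcriptional repressors of Cdh1, Zeb2 had a log2 fold change of 2.22 and Zeb1 of −2.60 in newborn neurons against intermediate progenitors (edgeR adjusted p = 5.1e-11 and 5.5e-09). Among other proteins with cadherin repeats, Celsr3, needed for axon tracts, had a log2 fold change of 4.27 in intermediate progenitors against radial glia (edgeR adjusted p = 9.9e-07). Fat1 and Celsr1 had −3.26 and −3.15 in newborn neurons against intermediate progenitors (edgeR adjusted p = 7e-09 and 1.9e-11). Of 9 WAVE complex genes, 2 were higher and 3 lower in intermediate progenitors against radial glia, and 4 were higher and 3 lower in newborn neurons against intermediate progenitors. The proprotein convertase Pcsk5 had −2.58 in intermediate progenitors against radial glia (edgeR adjusted p = 2e-06), in a list of cadherin-processing enzymes with 4 of 11 higher and 4 lower, and 2 of 9 higher and 3 lower at the next step.

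Among the neurons, the upper-layer and deep-layer gates had different members. Insm1, an intermediate progenitor marker, was on in 46.0% of upper-layer, 16.2% of layer 5 and at most 7.89% of layer 6 neurons. The median of newborn neuron markers was 6, 5 and 4 of 9 in these classes. Layer and neuronal age therefore cannot be told apart in the layer contrasts. Cdh12, Pcdh18, Pcdh8 and Pcdh10 were higher in upper-layer neurons, and Cdh9, Cdh18, Cdh13, Pcdh19, Cdh11 and Cdh2 were higher in deep-layer neurons. Of 22 members tested, 7 were higher and 11 lower in upper-layer neurons (edgeR, adjusted p under 0.05), where the contrast called 47.3% of 12826 genes, 24.5% higher and 22.8% lower. The member median was a log2 fold change of −0.76, against 0.01 for all genes tested.

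Cdh12 had 665 and 685 CPM in i4F-Nes and 389.9 and 639.6 CPM in CTR upper-layer neurons, against 57.0 and 43.1 CPM in i4F-Nes and 47.3 and 57.9 CPM in CTR deep-layer neurons (log2 fold change 3.49, SE 0.20, edgeR adjusted p = 0.00066). The delta-2 protocadherin Pcdh8 had 64.9, 50.4, 74.8 and 59.2 CPM in upper-layer neurons of i4F-Nes replicates 1 and 2 and CTR replicates 1 and 2, against 18.1, 14.54, 21.4 and 18.2 CPM in their deep-layer neurons (log2 fold change 1.77, SE 0.07, edgeR adjusted p = 3.2e-14). Every upper-layer value of both genes exceeded every deep-layer value. Pcdh18 and Pcdh10 had log2 fold changes of 2.59 and 1.41, and Cdh24 of 0.54. The higher levels of Cdh4 and Pcdh11x, by 1.14 and 1.25, depended on single libraries. For Cdh4 the adjusted p was 0.085 without i4F-Nes replicate 1 and 0.088 without CTR replicate 1, and for Pcdh11x it was 0.060 without i4F-Nes replicate 1 and 0.49 without CTR replicate 2 (edgeR). DESeq2 gave Pcdh11x an adjusted p of 0.14.

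On the deep side, Cdh13 had 232, 186, 302 and 147 CPM in upper-layer neurons of i4F-Nes replicates 1 and 2 and CTR replicates 1 and 2, against 1494, 987, 1504 and 1087 CPM in their deep-layer neurons (log2 fold change −2.59, SE 0.10, edgeR adjusted p = 2e-07). Cdh18 had 0.302, 3.31, 0.265 and 2.19 CPM in upper-layer neurons, against 32.4, 63.3, 13.4 and 58.1 CPM in deep-layer neurons (log2 fold change −4.75, SE 0.16, edgeR adjusted p = 3.7e-15). Both were apart in every library, and within each class both replicate 2 libraries had more Cdh18 and less Cdh13 than both replicate 1 libraries. Cdh9 was counted with 0, 7, 0 and 1 UMIs in upper-layer neurons, against 611, 317, 99 and 297 UMIs in deep-layer neurons of the same libraries (log2 fold change −5.26, SE 0.34, edgeR adjusted p = 7.5e-09). Cdh2 had 522, 535, 493 and 517 CPM in upper-layer neurons, against 968, 1178, 890.1 and 1061 CPM in deep-layer neurons (log2 fold change −0.99, SE 0.05, edgeR adjusted p = 3.5e-12). Pcdh19, Cdh7 and Cdh11 followed the same direction with log2 fold changes of −3.78, −2.64 and −1.51. Pcdh15 and Cdh6 had −1.22 and −0.63, the Cdh6 call being lost under stricter gates (edgeR adjusted p = 0.059). Pcdh17 and Pcdh1 had −1.37 and −1.07, both lost without CTR replicate 2 (edgeR adjusted p = 0.071 and 0.067). The Pcdh1 call was also lost with DESeq2 (adjusted p = 0.077).

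**Figure D3:**
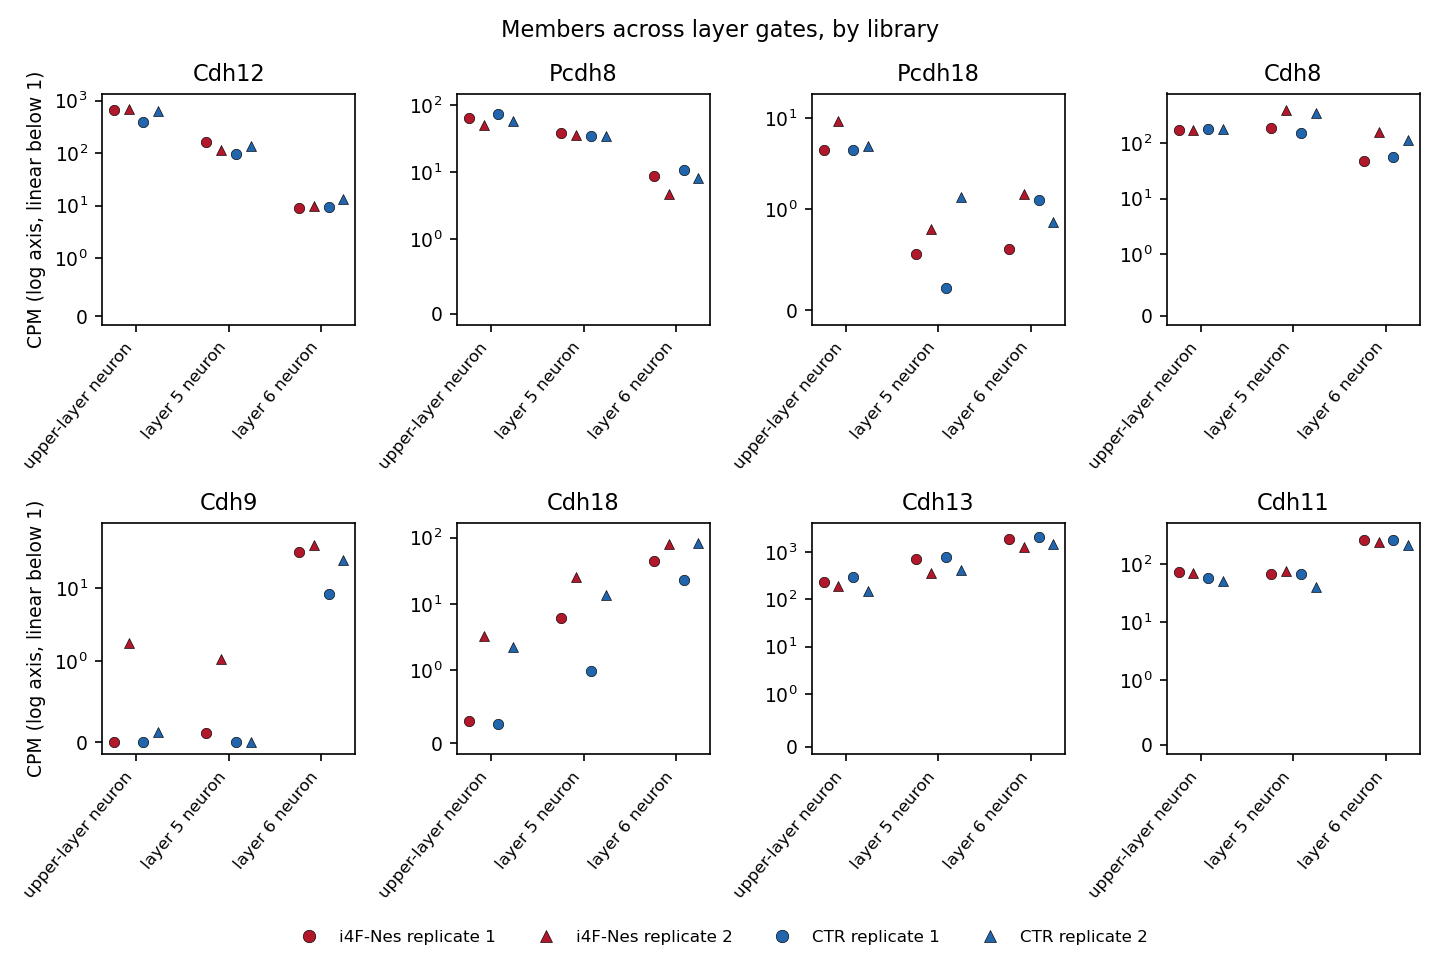
Level of 8 members in upper-layer, layer 5 and layer 6 neurons, in CPM on a log axis that is linear below 1, 1 point a library (red i4F-Nes, blue CTR; circles replicate 1, triangles replicate 2). Cdh12 steps down from the upper-layer class, at 389.9 to 685 CPM, through layer 5 to layer 6, at 8.99 to 13.4 CPM. Cdh9 is above 8 CPM in layer 6 only among these 3 classes.

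Between layer 5 and layer 6 neurons, layer 6 had the higher level for most members that passed. Of 20 members tested, 3 were higher and 11 lower in layer 5 neurons (edgeR, adjusted p under 0.05), where the contrast called 56.2% of 12683 genes, with 28.6% higher and 27.5% lower. The member median was a log2 fold change of −0.70, against −0.01 for all genes tested. The 3 higher in layer 5 were Cdh12, Pcdh8 and Cdh8.

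Cdh12 had 163 and 116 CPM in i4F-Nes and 96.8 and 134 CPM in CTR layer 5 neurons, against 8.99 and 9.63 CPM in i4F-Nes and 9.57 and 13.4 CPM in CTR layer 6 neurons (log2 fold change 3.70, SE 0.16, edgeR adjusted p = 2.4e-05). Pcdh8 had 38.4, 35.9, 35.0 and 35.3 CPM in layer 5 neurons of i4F-Nes replicates 1 and 2 and CTR replicates 1 and 2, against 8.89, 4.69, 11 and 8.29 CPM in their layer 6 neurons (log2 fold change 2.16, SE 0.15, edgeR adjusted p = 2.2e-06). Both genes therefore ran in the order upper, layer 5, layer 6, with no overlap between neighbours. Cdh8 had 183, 387, 153 and 342 CPM in layer 5, against 47.1, 156, 56.8 and 114 CPM in layer 6 (log2 fold change 1.63, SE 0.11, edgeR adjusted p = 8.3e-05). Its replicate 2 layer 6 values reached its replicate 1 layer 5 values, but layer 5 was higher within each of the 4 libraries.

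In layer 6, Cdh9 had 30.8, 38.6, 8.24 and 23.7 CPM in i4F-Nes replicates 1 and 2 and CTR replicates 1 and 2, and its layer 5 count was 1, 4, 0 and 0 UMIs (log2 fold change of layer 5 over layer 6 −6.90, SE 0.30, edgeR adjusted p = 1.5e-10). Cdh13 had 697, 363, 784 and 419 CPM in layer 5, against 1855, 1274, 2055 and 1474 CPM in layer 6 (log2 fold change −1.54, SE 0.08, edgeR adjusted p = 9.5e-08). Cdh11 had 66.2, 75.3, 67.9 and 39.8 CPM in layer 5, against 257, 235, 256 and 213 CPM in layer 6 (log2 fold change −1.92, SE 0.12, edgeR adjusted p = 8e-05). All 3 were separated without overlap. Cdh2 had 623, 759, 575 and 697 CPM in layer 5, against 1125, 1371, 1131 and 1272 CPM in layer 6 (log2 fold change −0.82, SE 0.05, edgeR adjusted p = 2.1e-10), which makes layer 6 the class with the most N-cadherin RNA among the cortical gates. Pcdh15, Cdh4 and Pcdh9 had log2 fold changes of −1.38, −1.30 and −1.15.

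Cdh18, with 6.02, 25.7, 0.981 and 13.4 CPM in layer 5 of i4F-Nes replicates 1 and 2 and CTR replicates 1 and 2, against 44.3, 80.6, 22.9 and 84.0 CPM in layer 6, was lower in layer 5 by −2.51 on the log2 scale (SE 0.37, edgeR adjusted p = 0.011). That call was lost without i4F-Nes replicate 1 (edgeR adjusted p = 0.066) and without CTR replicate 2 (edgeR adjusted p = 0.074). Pcdh7 and Pcdh19, with log2 fold changes of −1.39 and −0.94, lost the call without i4F-Nes replicate 1 (edgeR adjusted p = 0.066 and 0.093), and under stricter gates the value of Pcdh19 was −0.17 (edgeR adjusted p = 0.32). Cdh6, at −0.26, lost it without i4F-Nes replicate 1, i4F-Nes replicate 2 or CTR replicate 1 (edgeR adjusted p = 0.14, 0.071 and 0.17) and with DESeq2 (adjusted p = 0.18).

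The partner lists are given for the layer contrasts, which called 47.3% and 56.2% of all genes. Ctnna3, an alpha-catenin, had a log2 fold change of −4.04 in upper-layer against deep-layer neurons (edgeR adjusted p = 1.3e-17). In layer 5 against layer 6 it had −2.58 (edgeR adjusted p = 5.9e-12). Of the catenin list, 7 of 15 were higher and 5 lower in upper-layer neurons, and 4 of 15 higher and 5 lower in layer 5. Pcsk5 was lower by −6.06 in upper-layer neurons and by −4.32 in layer 5 (edgeR adjusted p = 1.2e-17 and 0.0016), with 0 of 10 processing enzymes higher and 4 lower in the first contrast and 2 of 11 higher and 6 lower in the second. Of the WAVE genes, 2 of 9 were higher and 5 lower in upper-layer neurons, and 1 of 9 higher and 6 lower in layer 5. Fat1 and Celsr1 were higher in upper-layer neurons, with log2 fold changes of 2.61 and 1.98 (edgeR adjusted p = 2.6e-08 and 3.1e-07), among 5 of 10 cadherin-repeat genes higher and 3 lower. In layer 5 against layer 6, 0 of 9 of these were higher and 4 lower. Of the Cdh1 repressor list, 3 of 4 tested were higher and 1 lower in upper-layer neurons, led by Tcf4 with 0.69, and 2 of 4 were higher and 1 lower in layer 5, led by Zeb1 with −0.71 (edgeR adjusted p = 3.2e-09 and 0.00053).

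Cells outside the cortical excitatory lineage had members of their own. Cdh5, VE-cadherin of endothelial junctions, had 604 CPM in the endothelial gate of i4F-Nes replicate 2 and 413 CPM in that of CTR replicate 1, and Pcdh12, another endothelial protocadherin, had 107 and 53.9 CPM there. Pcdh18 had 453 CPM in mural cells of i4F-Nes replicate 2 and 274 and 368 CPM in those of CTR replicates 1 and 2, far above its 11.1 CPM mean in radial glia. These vascular gates held 11 to 32 cells in the libraries given. The endothelial gate held only 2 cells in i4F-Nes replicate 1 and 6 in CTR replicate 2, and the mural gate 0 in i4F-Nes replicate 1. Before doublet removal, i4F-Nes replicate 1 had 23 endothelial and 18 mural cells. Interneurons, which enter the cortex from the ventral forebrain, had Pcdh19 at 185 and 149 CPM in i4F-Nes and 212 and 175 CPM in CTR, and Pcdh15 at 216 and 160.3 CPM in i4F-Nes and 142 and 126 CPM in CTR. Both were above the highest cortical excitatory value of the gene, 30.3 CPM for Pcdh19 and 97.5 CPM for Pcdh15. Cajal-Retzius cells, the reelin-making neurons of layer 1, had Pcdh11x at 172 and 164 CPM in i4F-Nes and 108 and 220.3 CPM in CTR. They had Cdh4 at 607 and 308 CPM in i4F-Nes and 614 and 557 CPM in CTR. This Cdh4 range overlapped that of newborn neurons, at 560.1 and 432 CPM in i4F-Nes and 295 and 309 CPM in CTR.

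In the reprogrammed progenitor gate Cdh1 appeared and Cdh2 was low. Of 337 Cdh1 UMIs in all kept cells, 261 (77.4%) lay in this gate, 43 (12.8%) in cells that passed both reprogrammed gates, 14 (4.15%) in the Krt8 neuron-like gate, 7 in radial glia, 1 in an intermediate progenitor and 11 in cells without a gate. No Cdh1 UMI fell in a newborn, upper-layer, layer 5 or layer 6 neuron, an interneuron, a Cajal-Retzius cell, an endothelial or mural cell or a microglial cell. The 2 CTR libraries held 1 Cdh1 UMI between them, in a cell without a gate. The markers of this gate came from clusters made from all genes of these cells, so its contrast with radial glia is given as a description, with no test, and radial glia of the same 2 i4F-Nes libraries are the comparison.

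Cdh1 had 12.8 and 5.54 CPM in the reprogrammed progenitors of i4F-Nes replicates 1 and 2, against 0.166 and 0.818 CPM in radial glia of the same libraries, which is 77.1-fold (exact 95% counting interval 21.1 to 641) and 6.78-fold (2.74 to 21.6) higher. Those radial glia values rest on 2 and 5 UMIs. Cdh2 had 83.6 and 88.3 CPM in reprogrammed progenitors, against 708 and 628 CPM in radial glia, 8.46-fold and 7.12-fold lower. Both genes moved the same way in both libraries, in opposite directions. For Cdh2 the level of reprogrammed progenitors was also near that counted in microglia, which do not rely on N-cadherin, at 136 and 107 CPM in the same libraries.

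Cell by cell, with every cell thinned to 4000 UMIs because reprogrammed progenitors are deeper (a median of 37042.5 and 27246.5 UMIs), Cdh1 was detected in 16 of 392 cells (4.08%, exact 95% interval 2.35 to 6.54%) and 9 of 348 cells (2.59%, 1.19 to 4.85%), against 0 of 694 (up to 0.432%) and 2 of 364 radial glia (0.549%, 0.0666 to 1.97%). No CTR radial glia had a Cdh1 UMI. Cdh2 was detected in 24.0% (19.8 to 28.5%) and 29.0% (24.3 to 34.1%) of thinned reprogrammed progenitors, against 87.5% (84.8 to 89.8%) and 80.5% (76.0 to 84.4%) of radial glia. In microglia, with a median of 7930.5 and 2191.5 UMIs, thinned Cdh2 detection was 2 of 20 cells (10.0%, 1.23 to 31.7%) and 1 of 9 cells (11.1%, 0.281 to 48.2%), and Cdh1 was at 0 in both. The microglial intervals reach past the Cdh2 shares of reprogrammed progenitors, so at this depth a part of that Cdh2 signal cannot be told from free RNA. Unthinned, Cdh1 was seen in 26.3% and 11.2% and Cdh2 in 75.8% and 73.6% of reprogrammed progenitors, against 0.280% and 0.535% for Cdh1 and 97.5% and 97.1% for Cdh2 in radial glia.

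Both genes were also counted cell by cell within the gate. After thinning, Cdh1 and Cdh2 UMIs were found together in 3 of 392 and 3 of 348 cells, Cdh1 alone in 13 and 6, Cdh2 alone in 91 and 98, and neither in 285 and 241. Free RNA can add UMIs to any of these counts, so they are not read as co-expression. Without thinning, i4F-Nes replicate 1 had 32 cells with Cdh1 only, 71 with both, 226 with Cdh2 only and 63 with neither, of 392. Replicate 2 had 16 with Cdh1 only, 23 with both, 233 with Cdh2 only and 76 with neither, of 348. Cells of the gate with a Nanog UMI, 1 of its markers, had Cdh1 at 14.51 and 7.31 CPM, against 3.61 and 3.39 CPM in cells of the gate without one. The same cells had Cdh2 at 65.5 and 62.7 CPM, against 181 and 119 CPM without a Nanog UMI.

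**Figure D4:**
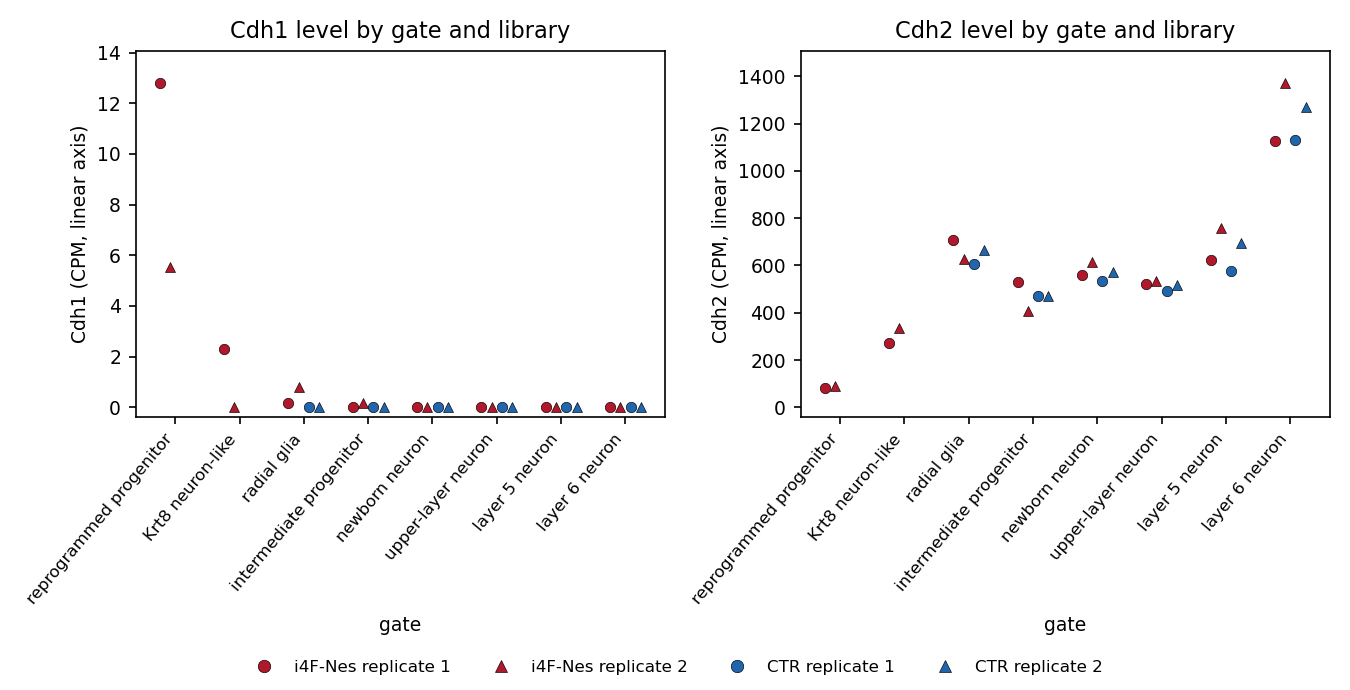
Cdh1 (left) and Cdh2 (right) level in 8 gates, in CPM on linear axes, 1 point a library (red i4F-Nes, blue CTR; circles replicate 1, triangles replicate 2). CTR libraries have no point in the 2 reprogrammed gates, which hold at most 1 CTR cell. Cdh1 reaches 12.8 and 5.54 CPM in reprogrammed progenitors, 2.31 CPM in the Krt8 neuron-like gate of i4F-Nes replicate 1 and at most 0.818 CPM elsewhere, while Cdh2 is lowest there and highest in layer 6 at 1125 to 1371 CPM.

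Taking as called a difference of at least 2-fold in the same direction in both i4F-Nes libraries with 10 CPM reached in both, 16 members were high enough in reprogrammed progenitors or radial glia, and 0 were called higher and 7 lower in reprogrammed progenitors. By the same rule 14.3% of 9705 genes were called, with 6.77% higher and 7.5% lower. By i4F-Nes replicate 1 alone, 4 of 19 members that reached 10 CPM were higher and 7 lower. By replicate 2 alone, 1 of 17 was higher and 10 were lower. Over all genes, the rule on replicate 1 alone called 977 higher and 993 lower of 10153. On replicate 2 alone it called 782 higher and 868 lower of 9906. Cdh1 is outside the members called, since it stayed under 10 CPM in replicate 2. The 7 lower members were Cdh2, Cdh6, Pcdh9, Pcdh10, Pcdh15, Pcdh17 and Pcdh19. Pcdh15 had 2.02 and 3.63 CPM in reprogrammed progenitors, against 97.5 and 72.8 CPM in radial glia, 48.3-fold and 20.1-fold lower. Pcdh10 had 9.33 and 20.2 CPM, against 82.7 and 105 CPM, and Cdh6 had 14.8 and 9.36 CPM, against 84.4 and 55.1 CPM. Pcdh9 had 82.2 and 125 CPM in reprogrammed progenitors, against 481 and 295 CPM in radial glia.

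Other radial glia members were closer to their radial glia level. Cdh20 had 55.3 and 53.1 CPM in reprogrammed progenitors, against 98.4 and 89.1 CPM in radial glia, and Cdh10 had 96.1 and 81.6 CPM, against 112 and 69.8 CPM. Pcdh8 had 54.5 and 53.2 CPM, against 52.7 and 33.9 CPM. The little-expressed members Pcdh1 and Cdh23 were seen in this gate. Pcdh1 was at 11.4 and 6.97 CPM against 0.415 and 0.654 CPM in radial glia, and Cdh23 was at 9.71 and 3.63 CPM against 0.581 and 0.654 CPM, both under 10 CPM in replicate 2. Pcdh7 had 117 and 103 CPM in reprogrammed progenitors, against 55 and 63.6 CPM in radial glia, and passed 2-fold in replicate 1 only.

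Of 19 epithelial genes listed, 6 reached 10 CPM, and all 6 were called higher. A gene near 0 in radial glia can reach 10 CPM only through the reprogrammed gate and is then called higher. The count of 6 of 6 is therefore largely set by the rule. Epcam, an epithelial adhesion protein, had 91.3 and 159 CPM in reprogrammed progenitors, against 2.16 and 3.92 CPM in radial glia. Ovol2, an epithelial transcription factor, had 67.2 and 38.7 CPM, against 0.332 and 0.327 CPM, and the desmosome gene Dsp had 17.5 and 12.3 CPM, against 0 and 0 CPM. Krt8, Krt18 and Cldn3 were the other 3. Of the catenin list, 1 of 14 was higher, Jup (plakoglobin), at 12.5 and 12.5 CPM against 0.913 and 1.64 CPM. The 2 lower were Ctnnd2, the neural delta-catenin that binds N-cadherin, at 105 and 109 CPM against 872 and 680 CPM, and Nectin3, at 25 and 24.2 CPM against 122 and 118 CPM. Of 4 Cdh1 repressors that reached 10 CPM, 0 were called in either direction, and the same held for 7 processing enzymes. Of the WAVE genes 1 of 9 was lower, Cyfip2, and of cadherin-repeat genes 2 of 8 were lower, Fat4 and Celsr1. These lists and the gate were chosen with earlier results of these libraries known, so their directions are not independent evidence.

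The Krt8 neuron-like gate had another set, described in the same way against newborn neurons of the same libraries. Of 17 members that reached 10 CPM, 2 were called higher and 9 lower, where the rule called 16.2% of 9325 genes, 9.84% higher and 6.32% lower. Pcdh15 had 186 and 214 CPM in Krt8 neuron-like cells of i4F-Nes replicates 1 and 2, against 4.94 and 2.88 CPM in newborn neurons, and Pcdh11x had 21.8 and 18.8 CPM, against 5.76 and 7.60 CPM. By mean level Pcdh15 was highest in this gate and lowest, among the i4F-Nes progenitor classes, in the reprogrammed progenitors, at the 2.02 and 3.63 CPM given above.

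Several members that newborn neurons express were low in Krt8 neuron-like cells. Cdh12 had 9.42 and 12.3 CPM in them, against 374 and 411 CPM in newborn neurons, Cdh8 had 11.2 and 9.93 CPM, against 305 and 329 CPM, and Pcdh9 had 43.1 and 98.4 CPM, against 1503 and 1651 CPM. Cdh4, Cdh11, Cdh24, Pcdh10, Pcdh17 and Pcdh18 were the other 6 lower. Pcdh8, whose highest cortical mean was in newborn neurons, had 77.2 and 105.8 CPM in Krt8 neuron-like cells, against 59.8 and 49.7 CPM in newborn neurons, and passed 2-fold in replicate 2 alone. Cdh2 had 274 and 336 CPM in Krt8 neuron-like cells, against 558 and 616 CPM in newborn neurons, 2.04-fold and 1.83-fold lower and so not called. Of the Cdh1 repressors, Zeb1 was higher, at 377 and 217 CPM against 33.4 and 40.1 CPM, and Zeb2 lower, at 116 and 227 CPM against 988 and 988 CPM. Of 19 epithelial genes listed, 5 reached 10 CPM and all 5 were higher, including Krt8, which helped to define the gate. Pkp1, a desmosome plaque protein among the 5, had 51.2 and 24.8 CPM against 0.103 and 0.205 CPM. Here too, a gene near 0 in newborn neurons can enter the count only by being higher. Of the other lists, 1 of 14 catenin-list genes was higher and 3 lower, 2 of 10 cadherin-repeat genes were higher and 2 lower, and 0 of 7 processing enzymes and 0 of 9 WAVE genes were called.

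Set against CTR over all kept cells, 1 member passed the edgeR threshold in i4F-Nes: Cdh1. It had 2.06 and 0.906 CPM in the i4F-Nes libraries (265 and 71 UMIs), against 0 and 0.0122 CPM in the CTR libraries (0 and 1 UMI). The summed counts give a ratio of 289.96 with an exact 95% counting interval of 51.7 to 11487. Of 30 members tested, 1 was called higher and 0 lower (edgeR, adjusted p under 0.05), where the contrast called 2.18% of 18556 genes, and 9 had an unadjusted p under 0.05. Cdh1 had an adjusted p of 0.028 (edgeR). DESeq2 called 5 members, all higher, with 5.82% of genes. Besides Cdh1 these were Cdh23, Cdh20, Pcdh15 and Pcdh11x (DESeq2 adjusted p = 0.00014, 0.0049, 0.032 and 0.038). Pcdh15 had 26.3 and 30.6 CPM in i4F-Nes, against 17.4 and 17.2 CPM in CTR. Pcdh11x had 14.3 and 17.8 CPM in i4F-Nes, against 7.46 and 9.74 CPM in CTR. In such sums over all kept cells, more cells of a type and more RNA per cell cannot be told apart. With the cells of both reprogrammed gates taken out, 0 members were called by edgeR, and all genes gave 0 calls with 426 at an unadjusted p under 0.05. Cdh1 was not among the genes tested in that fit, so its difference could not be called. It still had 8 and 10 UMIs in i4F-Nes replicates 1 and 2, against 0 and 1 in CTR replicates 1 and 2.

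Cdh23 had 1.76 and 1.54 CPM in i4F-Nes, against 0.258 and 0.391 CPM in CTR, and missed the threshold (log2 fold change 2.26, SE 0.35, edgeR adjusted p = 0.052). It passed when i4F-Nes replicate 1, i4F-Nes replicate 2 or CTR replicate 2 was left out (edgeR adjusted p = 0.041, 0.037 and 0.029). Cdh20 had 21 and 20.7 CPM in i4F-Nes, against 11.8 and 7.03 CPM in CTR (log2 fold change 1.056, SE 0.28, edgeR adjusted p = 0.18), and passed without CTR replicate 1 (edgeR adjusted p = 0.012). Cdh19 and Cdh9 also passed in 1 such fit each, without i4F-Nes replicate 1 and without CTR replicate 2 (edgeR adjusted p = 0.046 and 0.014). Every fit with 1 library left out also called more of all genes than the fit on 4 libraries. Cdh2 had 608 and 656 CPM in i4F-Nes, against 617 and 718 CPM in CTR, and the groups overlapped (log2 fold change −0.17, SE 0.15, edgeR adjusted p = 0.77). Without the reprogrammed gates its log2 fold change was 0.11 (edgeR adjusted p = 1.00). The member median was 0.15, against −0.02 for all genes. Of the partner lists, the epithelial one had 7 of 16 higher and 0 lower and the cadherin-repeat one 1 of 13 higher, Cdhr1. Krt8 had 299 and 82.0 CPM in i4F-Nes, against 0.0310 and 0.0244 CPM in CTR. Catenins, Cdh1 repressors, processing enzymes and WAVE genes had 0 calls of 16, 5, 11 and 9, with 1, 2, 1 and 1 at an unadjusted p under 0.05 (edgeR).

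**Figure D5:**
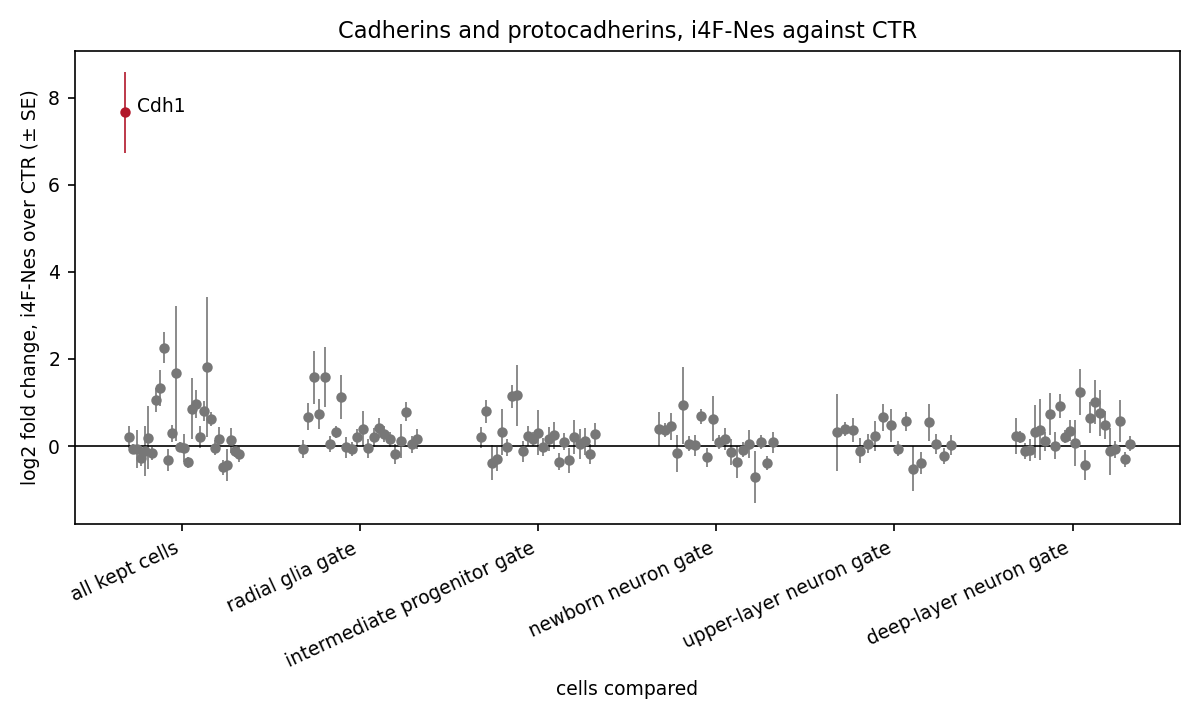
Log2 fold change of i4F-Nes over CTR for every member tested, over all kept cells and in 5 gates, with bars of 1 SE from edgeR (2 libraries a group). Points in each column run in alphabetical order of symbol, and red marks an adjusted p under 0.05. Cdh1 over all kept cells, at 7.66, is the 1 red point.

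Inside the 5 cortical gates no member was called. Radial glia, intermediate progenitors, newborn, upper-layer and deep-layer neurons gave 22, 23, 20, 16 and 24 members tested and 0 called by edgeR each. At an unadjusted p under 0.05 there were 3, 2, 2, 2 and 1, and DESeq2 also called 0 in each. The same contrasts called 0.0379%, 0%, 0.0245%, 0% and 0% of all genes with edgeR and 0.25%, 0.11%, 0.0297%, 0% and 0.0132% with DESeq2, so few genes of any kind passed there. The member medians were log2 fold changes of 0.20, 0.17, 0.07, 0.14 and 0.22. Cdh2 had log2 fold changes of 0.05, −0.03, 0.05, 0.05 and 0.11 in these gates, with SEs of 0.19, 0.20, 0.17, 0.21 and 0.21. With 2 libraries a group, these errors do not exclude changes of N-cadherin RNA of several SEs in either direction.

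Some members missed the threshold with all 4 libraries and passed when 1 library was left out. Each such fit leaves 1 library in a group and also called more of all genes than the fit on 4 libraries. A pass there is therefore not particular to the members. Pcdh7 had 55 and 63.6 CPM in i4F-Nes, against 27.3 and 41.1 CPM in CTR radial glia, which do not overlap (log2 fold change 0.79, SE 0.22, edgeR adjusted p = 0.56), and it passed without CTR replicate 2 (log2 fold change 1.12, edgeR adjusted p = 0.0011). Cdh20 had 21.4 and 26.4 CPM in i4F-Nes, against 8.72 and 12.7 CPM in CTR intermediate progenitors (log2 fold change 1.15, SE 0.26, edgeR adjusted p = 0.83), and it passed without CTR replicate 2 (log2 fold change 1.46, edgeR adjusted p = 0.0031). Cdh4 had 560.1 and 432 CPM in i4F-Nes, against 295 and 309 CPM in CTR newborn neurons, and again did not overlap (log2 fold change 0.68, SE 0.18, edgeR adjusted p = 1.00), but it passed with no single library left out. In deep-layer neurons Cdh4 had 184 and 132 CPM in i4F-Nes, against 103 and 59.9 CPM in CTR, and passed without CTR replicate 1 (edgeR adjusted p = 0.015). Cdh10 and Cdh12 in newborn neurons and Cdh9 in deep-layer neurons passed without CTR replicate 2 (edgeR adjusted p = 0.00075, 0.014 and 0.00011). On all 4 libraries without a low-count filter, Pcdh7 in radial glia and Cdh20 in intermediate progenitors passed as well (edgeR adjusted p = 0.0052 and 0.0034).

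The response of radial glia was also set directly against that of upper-layer neurons. Of 22 members tested, 1 was called higher in radial glia and 0 lower, with 4 at an unadjusted p under 0.05 and 0.0819% of 13428 genes called. That member was Pcdh7, with a difference of 0.78 between the 2 log2 fold changes (SE 0.13, edgeR adjusted p = 0.033). Its upper-layer levels were 297 and 348 CPM in i4F-Nes, against 263 and 355 CPM in CTR, which overlap. Without CTR replicate 1 the difference was 0.70 and no longer passed (edgeR adjusted p = 0.15). The number of members called was 2 without i4F-Nes replicate 1, 2 without i4F-Nes replicate 2, 1 without CTR replicate 1, in that case lower in radial glia, and 4 without CTR replicate 2.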

How the data were processed

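Droplet-based 3′ single-cell RNA sequencing gave 4 libraries, 2 of i4F-Nes and 2 of CTR cortex. The authors deposited a matrix of raw UMI counts per gene and cell barcode for each library, made with Cell Ranger 7.0.1 per the file headers and on mm10 per the submitters' processing notes. The matrices held 35255 barcodes and 32285 genes. Barcodes with at least 1000 UMIs, at least 500 genes and at most 10% mitochondrial UMIs were used, which left 28672. The highest Scrublet scores, at 0.8% of barcodes per 1000 barcodes of a library, were then removed as doublets (2031 cells). The 26641 cells kept held 385509235 UMIs, from 78346750 to 128584415 a library.

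Cells were put into classes by marker genes outside the 35 members, a marker being on with at least 2 UMIs and at least 1 per 10000 UMIs of the cell. The numbers of markers required were set from the UMI counts of the markers alone, and 10555 cells met no class. The members, gene lists, marker lists and tests were chosen with earlier results of these data known. A level (CPM) is the summed UMIs of a gene per 1000000 UMIs of a class in a library and is given from 10 cells up. Counts were summed per library and class, from 20 cells up, filtered with filterByExpr, scaled by TMM and tested by quasi-likelihood in edgeR, with Benjamini-Hochberg adjustment over all genes tested and a threshold of 0.05. Comparisons of i4F-Nes with CTR used group alone, and comparisons between classes used the library as a block. The fits were tested on simulated data. The reprogrammed gates, nearly without CTR cells, were described by a rule of 2-fold and 10 CPM in both i4F-Nes libraries. Shares of cells were computed after thinning each cell to 4000 UMIs, leaving out shallower cells. Exact 95% intervals, and limits at a count of 0 (3 counts), cover counting error only.

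Members with at least 10 CPM in a class, those past the threshold, Cdh1 and Cdh2 were named, and others were counted. Alternatives were another scaling, DESeq2, no low-count filter, stricter gates, no doublet removal, no thinning, the replicate number as a block, and each library left out. Positions are of GENCODE M21 on GRCm38, matched for 35 of 35 gene IDs, and promoter sequences are from RefSeq on GRCm38.p6, found for 22 members. Python 3.11.15, scanpy 1.11.5, R 4.3.3, edgeR 4.0.16 and DESeq2 1.42.0 were used.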

Additional observations from a re-analysis of the deposited data

Results flagged for a closer look

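Pcdh7, the delta-1 protocadherin, was the 1 member whose i4F-Nes response differed between 2 cell classes by a direct test. Its response in radial glia minus that in upper-layer neurons was 0.78 on the log2 scale (SE 0.13, edgeR adjusted p = 0.033). It had 55 and 63.6 CPM in i4F-Nes, against 27.3 and 41.1 CPM in CTR radial glia, and 297 and 348 CPM in i4F-Nes, against 263 and 355 CPM in CTR upper-layer neurons. With 1 library left out the difference was 0.70 to 0.80, and it passed the threshold without i4F-Nes replicate 1, i4F-Nes replicate 2 or CTR replicate 2 (edgeR adjusted p = 0.0026, 0.012 and 0.010) and missed it without CTR replicate 1 (edgeR adjusted p = 0.15). The response within radial glia alone did not pass (edgeR adjusted p = 0.56).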

How the results depend on the processing

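In the class contrasts the number of members called stayed within 1.5 times the reported one under every alternative run. In i4F-Nes against CTR, where the reported numbers were 1 over all kept cells and 0 in each class, small numbers moved. Over all kept cells 5 members were called with DESeq2, 2 without a low-count filter, 2 without doublet removal, 0 without the reprogrammed gates, and 2 to 3 with 1 library left out. Cdh1 was not tested in the fit without the reprogrammed gates. Without a low-count filter 1 was called in radial glia and 1 in intermediate progenitors. With 1 library left out, 0 to 1 were called in radial glia, intermediate progenitors and deep-layer neurons, 0 to 2 in newborn neurons, 1 to 4 in the test of radial glia against upper-layer responses, and 11 (both cases) in reprogrammed progenitors against radial glia, where 7 were reported. Calls over all genes moved too: edgeR gave 405, 5, 0, 3, 0 and 0 genes over all kept cells and in radial glia, intermediate progenitors, newborn, upper-layer and deep-layer neurons, and DESeq2 gave 1177, 37, 17, 6, 0 and 3. Without a low-count filter 792, 142, 101, 25, 9 and 13 genes were higher, and with 1 library left out 524 to 753, 48 to 131, 4 to 141, 8 to 72, 0 to 36 and 1 to 75. In the test of responses 11 genes were higher, and 28 to 159 with 1 library left out. Same-numbered libraries deviated together with a correlation of 0.33 over 18556 genes, but there are only 2 pairs and the labels do not say what a number shares. With the replicate block 4 members were called over all kept cells (Cdh1, Cdh23, Pcdh15 and Pcdh11x), 1 in radial glia (Pcdh7) and 2 in intermediate progenitors (Cdh20 and Cdh11). It called 5 in newborn neurons (Cdh4, Cdh10, Cdh11 and Cdh12 higher, Pcdh8 lower), 1 in upper-layer neurons (Cdh4) and 2 in deep-layer neurons (Cdh4 and Pcdh7). In the same order, 6.92%, 1.28%, 2.66%, 2.09%, 0.899% and 1.06% of all genes were called. The log2 fold change of Cdh2, called in none of these fits, changed sign: it was 0.11 over all kept cells without the reprogrammed gates, and with 1 library left out −0.046 to 0.14 in radial glia, −0.19 to 0.12 in intermediate progenitors, −0.042 to 0.14 in newborn, −0.020 to 0.13 in upper-layer and −0.076 to 0.28 in deep-layer neurons, and −0.079 to 0.083 in the test of responses. Cdh8 in newborn neurons against intermediate progenitors was 0.13 under stricter gates. The mean share of reprogrammed progenitors with a Cdh1 UMI was 18.7% without thinning. For Cdh2 it was 74.7% without thinning and 30.7% without doublet removal, and 97.3% of radial glia without thinning. Of the single-gene values under alternatives, 750 kept direction and side of the threshold, 45 kept direction and lost the call, and 13 changed sign; the cause was not tested. Depth limits the members with few UMIs, 3 for Cdh16 and 337 for Cdh1 among them, and 2 libraries a group limit each comparison of i4F-Nes with CTR.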

Other observations

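Members outside the excitatory lineage that the report does not describe were as follows. Cajal-Retzius cells had the type II cadherin Cdh18 at 89.2 and 47.9 CPM in i4F-Nes and 98.7 and 177 CPM in CTR, and Cdh7 at 40.6 and 37.6 CPM in i4F-Nes and 37.9 and 49.0 CPM in CTR. The groups did not overlap for Cdh18, on 14 to 116 UMIs a library and with no test, and overlapped for Cdh7. Interneurons had Cdh11 at 185 and 184 CPM in i4F-Nes and 205 and 192 CPM in CTR. Mural cells had Pcdh19 at 131 CPM in i4F-Nes replicate 2 and 75.4 and 102 CPM in CTR, and Pcdh1 at 77.4 CPM in i4F-Nes replicate 2 and 63.5 and 133 CPM in CTR. In the endothelial gate Cdh2 was at 1284 CPM in i4F-Nes replicate 2 and 661 CPM in CTR replicate 1, and Pcdh17 at 188 and 53.9 CPM. These vascular values rest on few cells and were not tested.

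Within intermediate progenitors, Cdh7, Cdh24, Pcdh10, Pcdh17 and Pcdh19 were also higher in cells with mitotic transcripts in 4 of 4 libraries, by mean level and with no test. Cdh7 had 12.7 CPM in cycling and 5.15 CPM in other cells, Cdh24 had 20.8 and 11.1 CPM, Pcdh10 had 31.4 and 19.4 CPM, Pcdh17 had 30.2 and 22.4 CPM, and Pcdh19 had 3.99 and 3.13 CPM. Of the other cassette factors, the 3′ counts overlapped between the groups over all kept cells: Sox2 had 86.3 and 76.0 CPM in i4F-Nes and 93.3 and 52.5 CPM in CTR, Klf4 3.47 and 3.42 CPM in i4F-Nes and 5.42 and 2.58 CPM in CTR, and Myc 13.0 and 10.2 CPM in i4F-Nes and 17.7 and 10.1 CPM in CTR.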
